A study of Homo sapiens with 6 samples.

Results

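The 36 genes described here encode the core machinery of macroautophagy, and were taken from a fixed list of symbols that each matched 1 Ensembl identifier among the 60664 genes of the count files. They are ULK1, ULK2, ATG13, ATG101 and RB1CC1 (the ULK complex), BECN1, PIK3C3, PIK3R4, ATG14 and UVRAG (the class III PI 3-kinase complexes), ATG2A, ATG2B, ATG9A, WIPI1 and WIPI2 (membrane supply), ATG3, ATG5, ATG7, ATG10, ATG12 and ATG16L1 (conjugation), ATG4A to ATG4D (proteases), MAP1LC3A, MAP1LC3B, GABARAP, GABARAPL1 and GABARAPL2 (ATG8 proteins), SQSTM1, NBR1, OPTN and TAX1BP1 (cargo receptors), and TFEB and TFE3 (transcription factors). The cells were D283 Med, a MYC-amplified human cell line of Group 3 medulloblastoma, and polyadenylated RNA was sequenced. All 6 libraries came from cells transfected with LNA GapmeRs, antisense oligonucleotides that recruit RNase H to a transcript. The 3 libraries labelled SCR received the control GapmeR (controls 1 to 3). The 3 labelled KD received one that targets lncMB3, a long non-coding RNA (knockdown libraries 1 to 3). Both groups are 1 cell line, and the sources used here do not give the time after transfection, the GapmeR sequence or whether the 3 libraries of a group were separate cultures. P-values therefore rest on a library-to-library spread that may be only technical.

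Macroautophagy encloses cytoplasm in a double membrane, the autophagosome, and delivers it to the lysosome for breakdown. The ULK kinase complex starts the process and is held back by mTORC1, a PI 3-kinase complex marks the forming membrane with PI3P, and conjugation enzymes attach the small ATG8 proteins to its lipids. Cargo receptors bind both ubiquitylated cargo and ATG8 proteins, and are themselves broken down with the cargo, so transcript levels alone give no measure of the rate of autophagy.

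Total counts lay between 17072573 and 20035834 in the controls and between 7765826 and 19989654 in the knockdown libraries, with the lowest total in knockdown library 1. Levels are given as CPM, counts scaled to a common library size after TMM normalisation (edgeR's correction for library makeup). No source used here pairs lncMB3 with a gene identifier, its level was not analysed here, and directions rest on the group labels. Markers of Group 3 medulloblastoma were present, with 7 of 7 detected in every library and summed levels of 2453 to 2701 CPM in control libraries against 2231 to 2357 CPM after knockdown. Of these OTX2, CRX, NRL, NEUROD1 and IMPG2 fell, GABRA5 rose and MYC was not called. Among markers of immune, endothelial and glial cells, MBP was at 0 in every library, and PTPRC, PECAM1, GFAP and AQP4 had at most 3 counts in any library. CD68, an immune marker, was detected in every library, at 1.12 to 1.81 CPM in controls and 0.65 to 2.19 CPM after knockdown. It was not called (log2 change 0.19, adjusted p = 0.711). COL1A2 and EPCAM had at most 4 and 6 counts. COL1A1, a collagen chain, fell from a range of 18.1 to 21.8 CPM to one of 13.7 to 17.3 CPM (log2 change -0.36, adjusted p = 0.0315), and its part in the results below was not tested.

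The comparison asked which autophagy transcripts differ after lncMB3 is targeted. The autophagy genes did not move as a block. SQSTM1, GABARAPL1, ATG101, ATG5, PIK3R4, ATG3, ATG14 and ATG16L1 rose, by 1.22-fold to 1.87-fold, while NBR1, OPTN, UVRAG and ATG10 fell, by 1.265-fold to 1.46-fold. In bulk RNA, fewer cells of a kind and less RNA per cell cannot be told apart. All 36 genes passed the low-count filter, and 8 rose, 4 fell and 24 were not called at an adjusted p of 0.05 in edgeR's quasi-likelihood test. The called share of 33.3% was close to that of all 14673 genes tested, of which 31.7% were called, 15.9% higher and 15.9% lower. The median log2 change was -0.03 over the 36 genes and 0 over all genes tested. Of all genes tested, 511 (3.48%) were called with a change of at least 2-fold, and 0 of the 36 were. The median size of the change was 0.18 over the 36 genes against 0.24 over all genes on the log2 scale. The control and knockdown libraries did not overlap for 17 of the 36 genes (47.2%), against 46% of all genes. The 6 of these that were not called were ATG7, ATG9A, ATG13, BECN1, WIPI1 and WIPI2. With upper-quartile scaling 7 rose and 7 fell, since ATG16L1 lost its call and ATG13, ATG9A and TAX1BP1 gained one. All genes tested shifted the same way, with 1773 rises and 2803 falls under that scaling against 2328 and 2329 under TMM. The number of called genes was 4657 over all genes and became 2704 without control 2 and 2891 without control 3. Over the omission of each of the 6 libraries in turn, the 36 genes gave 6 to 8 rises and 3 to 5 falls.

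**Figure D1:**
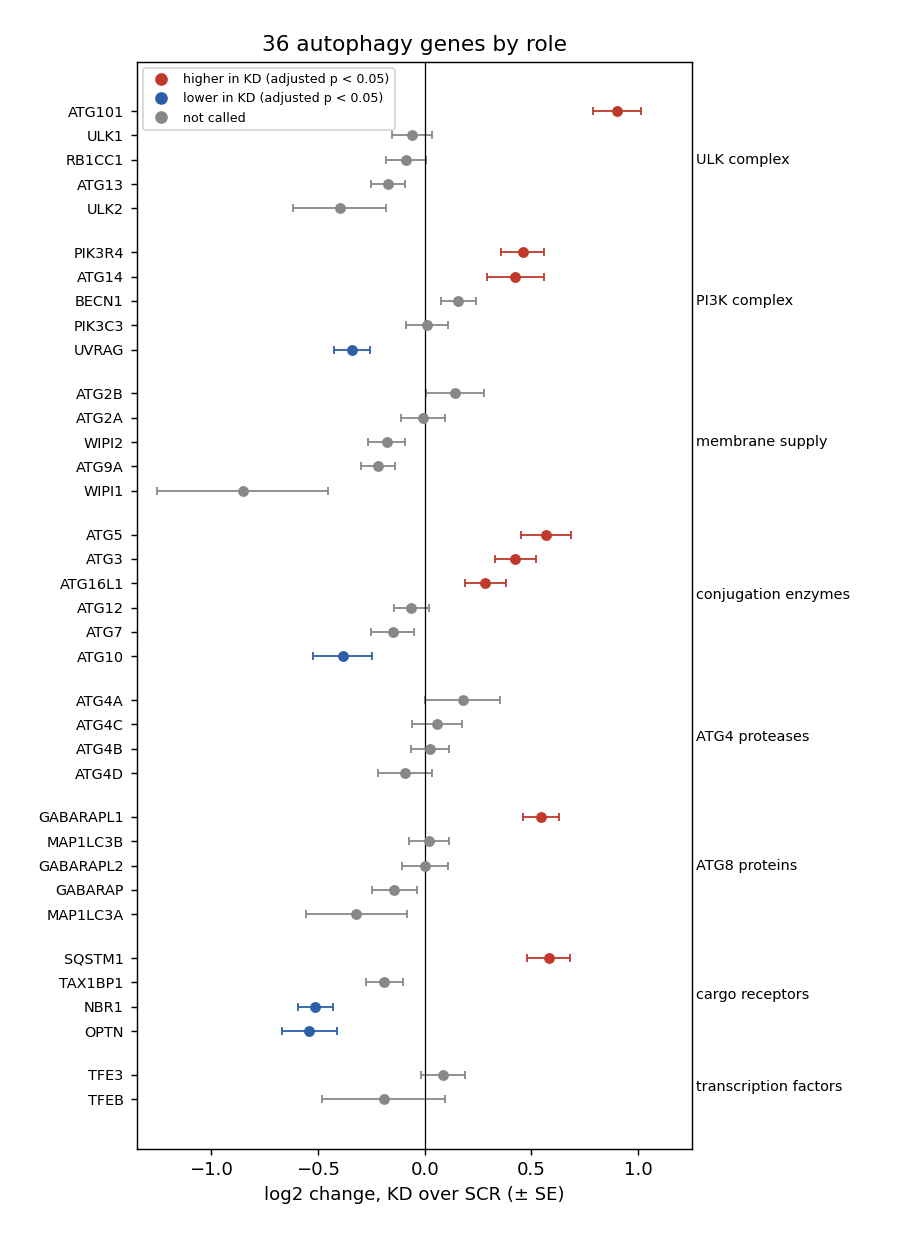
Log2 change of each of the 36 genes, knockdown over control, with its standard error, grouped by role; red and blue points passed an adjusted p of 0.05. Called changes run from -0.54 for OPTN to 0.90 for ATG101, and every role group holds genes that were not called.

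Of the controls, library 1 lay nearest the knockdown mean for 11 of the 12 called genes, and for 80.5% of all called genes. The calls of 9 genes (ATG101, PIK3R4, ATG3, ATG5, GABARAPL1, SQSTM1, UVRAG, NBR1 and OPTN) held under every alternative scaling, filter, tool and threshold tried and without any 1 library. Those of ATG10, ATG14 and ATG16L1 did not. They were lost at a threshold of 0.01 and under the further alternatives described with each gene.

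Promoters of the genes were searched for letters recognised by families of transcription factors, with motifs chosen after the expression results were known. RefSeq promoter windows (GRCh38.p14, 250 bases before to 50 after a start) were found for 32 of the 36 genes, in 41 windows. The motifs, sought on both strands, were the E-box CACGTG, read by MYC and by TFEB and TFE3 among others, the longer CLEAR element, which contains it, the cyclic AMP response element TGACGTCA, and TGATGNAA, read by ATF4 with C/EBP partners. The E-box was in 2 of the 41 windows (4.88%), those of ATG3 and ATG14, against 7.26% of all 35116 windows. The cyclic AMP response element was in 1 window (2.44%), that of GABARAPL1, against 1.85% of all windows. The CLEAR element and TGATGNAA were in 0 of the 41 windows, against 0.353% and 3.62% of all. CLEAR was sought only as a fixed string of letters with no mismatch allowed, so sites that resemble it were not counted. The letters beside the E-boxes of ATG3 and ATG14 were not scored for likeness to it, and a lack of CLEAR-like sites was not tested. The 3 windows with a match all belonged to genes that rose and are shown for that reason. With so few matches and motifs chosen after the results, a link between match and rise was not tested. The stretch shown runs from 150 bases before to 30 after the start, 5′ to 3′ on the gene's strand, with each match in capitals. The E-box began at position -18 and again at position 6 of ATG3 and at position -21 of ATG14. The response element began at position -30 of GABARAPL1. Positions count from the RefSeq start as 1, which for these 3 genes lies inside the GENCODE span given below. A match describes the letters only.
ATG3, chr3:112561933-112562112, minus strand: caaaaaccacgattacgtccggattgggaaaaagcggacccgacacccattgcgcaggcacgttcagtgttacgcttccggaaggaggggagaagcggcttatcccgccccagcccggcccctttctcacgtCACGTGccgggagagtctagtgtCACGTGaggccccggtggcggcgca
ATG14, chr14:55411801-55411980, minus strand: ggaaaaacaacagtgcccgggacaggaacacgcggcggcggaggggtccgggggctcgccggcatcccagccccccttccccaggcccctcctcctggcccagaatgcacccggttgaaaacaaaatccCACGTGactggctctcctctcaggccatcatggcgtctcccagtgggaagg
GABARAPL1, chr12:10212727-10212906, plus strand: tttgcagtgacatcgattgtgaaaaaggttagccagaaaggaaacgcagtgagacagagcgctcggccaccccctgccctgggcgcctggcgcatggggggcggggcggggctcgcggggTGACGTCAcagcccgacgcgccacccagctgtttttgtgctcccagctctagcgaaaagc

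In the ULK complex, which phosphorylates the downstream machinery, 1 of 5 genes rose and 0 fell (20% called, against 31.7% of all genes tested). ATG101 (chromosome 12, 52069246 to 52077494), which stabilises ATG13 in the complex, was at 21.1, 20.8 and 17.0 CPM in controls 1 to 3 and reached 33.8, 41.2 and 34.5 CPM in knockdown libraries 1 to 3. The groups were well apart, and this was the largest called change of the 36 genes. It rose 1.87-fold, with group means of 19.6 ± 2.30 and 36.5 ± 4.10 CPM (± SD, n = 3 each; log2 change 0.90 ± 0.11, SE; adjusted p = 0.000129). ATG13, the partner of ATG101, was at 162.9, 166.8 and 177.7 CPM in control libraries against 153.2, 146.1 and 151.0 CPM after knockdown, so that the groups did not overlap but differed little (log2 change -0.17 ± 0.08, adjusted p = 0.110, unadjusted p = 0.0459). The call of ATG13 depended on the scaling, with an adjusted p of 0.0379 under upper-quartile scaling. ULK1, the kinase, was at 37.2 ± 3.37 and 35.8 ± 1.28 CPM, and RB1CC1, the scaffold also called FIP200, at 94.0 ± 7.99 and 88.3 ± 7.82 CPM, neither called (adjusted p = 0.658 and 0.505). ULK2, a second kinase gene, was near the bottom of the range at 3.63 ± 0.42 and 2.75 ± 0.57 CPM (adjusted p = 0.179).

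Among the PI 3-kinase genes 2 of 5 rose and 1 fell (60% called, against 31.7% of all genes tested). The catalytic subunit was not among the called genes. ATG14, which directs the kinase to the start of the autophagosome, and UVRAG, which replaces ATG14 in the complex that acts on endosomes and at later steps, moved in opposite directions. ATG14 (chromosome 14, 55366392 to 55411858) was at 18.03, 15.0 and 16.5 CPM in control libraries against 17.95, 20.8 and 26.5 CPM after knockdown. Knockdown library 1 lay just under control 1, so the groups overlapped, and ATG14 was the only called gene of the 36 for which they did. It rose 1.34-fold (log2 change 0.42 ± 0.13, adjusted p = 0.0257). The call was lost without control 2 (adjusted p = 0.123), control 3 (0.0620) or knockdown library 3 (0.188, with a log2 change of 0.24). UVRAG (chromosome 11, 75815167 to 76143195) was at 42.9, 43.9 and 44.9 CPM in control libraries against 36.7, 34.0 and 33.9 CPM after knockdown. All 3 knockdown libraries lay below all controls. UVRAG fell 1.265-fold, with group means of 43.9 ± 1.009 and 34.9 ± 1.58 CPM (log2 change -0.34 ± 0.09, adjusted p = 0.00815).

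Scaled to exon length, ATG14 stood at 0.528, 0.428 and 0.463 of the level of UVRAG in controls 1 to 3 but at 0.615, 0.769 and 0.985 in the knockdown libraries, a pair chosen after its values were seen. PIK3R4 (chromosome 3, 130678935 to 130746829), the VPS15 scaffold found in both complexes, was at 47.95, 43.9 and 42.3 CPM in control libraries against 67.4, 52.5 and 65.2 CPM after knockdown. Its groups did not overlap, and knockdown library 2 was the closest to the controls. It rose 1.37-fold (log2 change 0.46 ± 0.10, adjusted p = 0.00432). The catalytic subunit PIK3C3 was at 28.4 ± 0.28 and 28.3 ± 3.32 CPM (adjusted p = 0.943). BECN1, the Beclin subunit shared by both complexes, was at 65.3, 62.8 and 58.3 CPM in control libraries against 69.5, 68.7 and 69.9 CPM after knockdown, apart but not called (log2 change 0.16 ± 0.08, adjusted p = 0.157).

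Of the genes for membrane supply and PI3P binding, 0 of 5 passed the threshold in edgeR's test, against 31.7% of all genes tested. DESeq2 and limma-voom also called 0, and 1 gene was under 0.05 before adjustment in edgeR's test. That gene was ATG9A, the lipid scramblase of the vesicles that seed the membrane, at 74.1, 78.8 and 76.3 CPM in control libraries against 67.2, 66.9 and 63.2 CPM after knockdown. The groups were apart by a small step (log2 change -0.22 ± 0.08, unadjusted p = 0.0167, adjusted p = 0.0520). It was called under upper-quartile scaling (adjusted p = 0.0183), with a filter of 1 CPM in 3 libraries (0.0388) and without control 1 (0.0475). WIPI2, the PI3P reader that recruits ATG16L1, was at 55.0 ± 2.40 and 48.5 ± 3.20 CPM (adjusted p = 0.131). WIPI1, a related reader, was measured least precisely, with 4 to 16 counts per library and 0.703, 0.783 and 0.782 CPM in the controls against 0.520, 0.261 and 0.521 CPM in the knockdown (log2 change -0.85 ± 0.40, adjusted p = 0.120). The lipid transfer genes ATG2A and ATG2B were at 28.7 ± 1.66 and 26.5 ± 2.09 CPM in control libraries against 28.9 ± 3.51 and 29.5 ± 6.29 CPM after knockdown. ATG2B was called without knockdown library 2 (log2 change 0.33, adjusted p = 0.0296, against 0.14 and 0.454 with all libraries).

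The conjugation enzymes had 3 rises and 1 fall among 6 genes (66.7% called, against 31.7% of all genes tested). ATG5 and ATG16L1, which with ATG12 form the ligase that attaches ATG8 proteins to lipid, rose, as did ATG3, the E2-like enzyme that hands the ATG8 protein over. ATG5 (chromosome 6, 106045423 to 106325791) was at 41.3, 36.1 and 28.95 CPM in control libraries against 47.9, 56.1 and 53.0 CPM after knockdown. The controls spread widely without reaching the knockdown libraries. ATG5 rose 1.48-fold, with group means of 35.5 ± 6.22 and 52.3 ± 4.15 CPM (log2 change 0.57 ± 0.12, adjusted p = 0.00256). ATG3 (chromosome 3, 112532509 to 112562046) was at 34.4, 29.8 and 28.4 CPM in control libraries against 42.5, 42.6 and 39.3 CPM after knockdown. The lowest knockdown value again lay above control 1, the highest control, and ATG3 rose 1.34-fold (log2 change 0.42 ± 0.10, adjusted p = 0.00459).

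ATG16L1 (chromosome 2, 233210051 to 233295674) was at 23.4, 23.1 and 21.6 CPM in control libraries against 25.0, 28.2 and 29.1 CPM after knockdown, the smallest called change of the 36 genes (1.22-fold, log2 change 0.28 ± 0.10, adjusted p = 0.0365). The groups did not overlap, but the call was lost with upper-quartile scaling (adjusted p = 0.0874), no low-count filter (0.0714), DESeq2 (0.0626) and a replicate block (0.0545). It was also lost without control 2 (0.103), control 3 (0.130), knockdown library 2 (0.0726) or knockdown library 3 (0.146). ATG12, the ubiquitin-like partner that is joined to ATG5, was at 43.3 ± 1.37 and 41.4 ± 1.46 CPM (adjusted p = 0.608), and ATG7, the E1-like enzyme of both conjugation systems, at 19.8 ± 1.13 and 17.8 ± 0.45 CPM (adjusted p = 0.271). ATG10 (chromosome 5, 81972025 to 82276857), the E2-like enzyme that joins ATG12 to ATG5, was at 8.84, 10.4 and 10.5 CPM in control libraries against 8.72, 7.46 and 6.99 CPM after knockdown. Control 1 lay only just above knockdown library 1. ATG10 fell 1.31-fold (log2 change -0.38 ± 0.14, adjusted p = 0.0455). That call was lost with DESeq2 (adjusted p = 0.107), a replicate block (0.0506), and without control 2 (0.155), control 3 (0.137), knockdown library 2 (0.0919) or knockdown library 3 (0.150). RPS23, a ribosomal protein gene at 789 CPM or more in every library, overlaps ATG10 on the other strand, and with no statement that counting used strand, their reads may not be separated. RPS23 was not called (log2 change 0.15, adjusted p = 0.339).

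**Figure D2:**
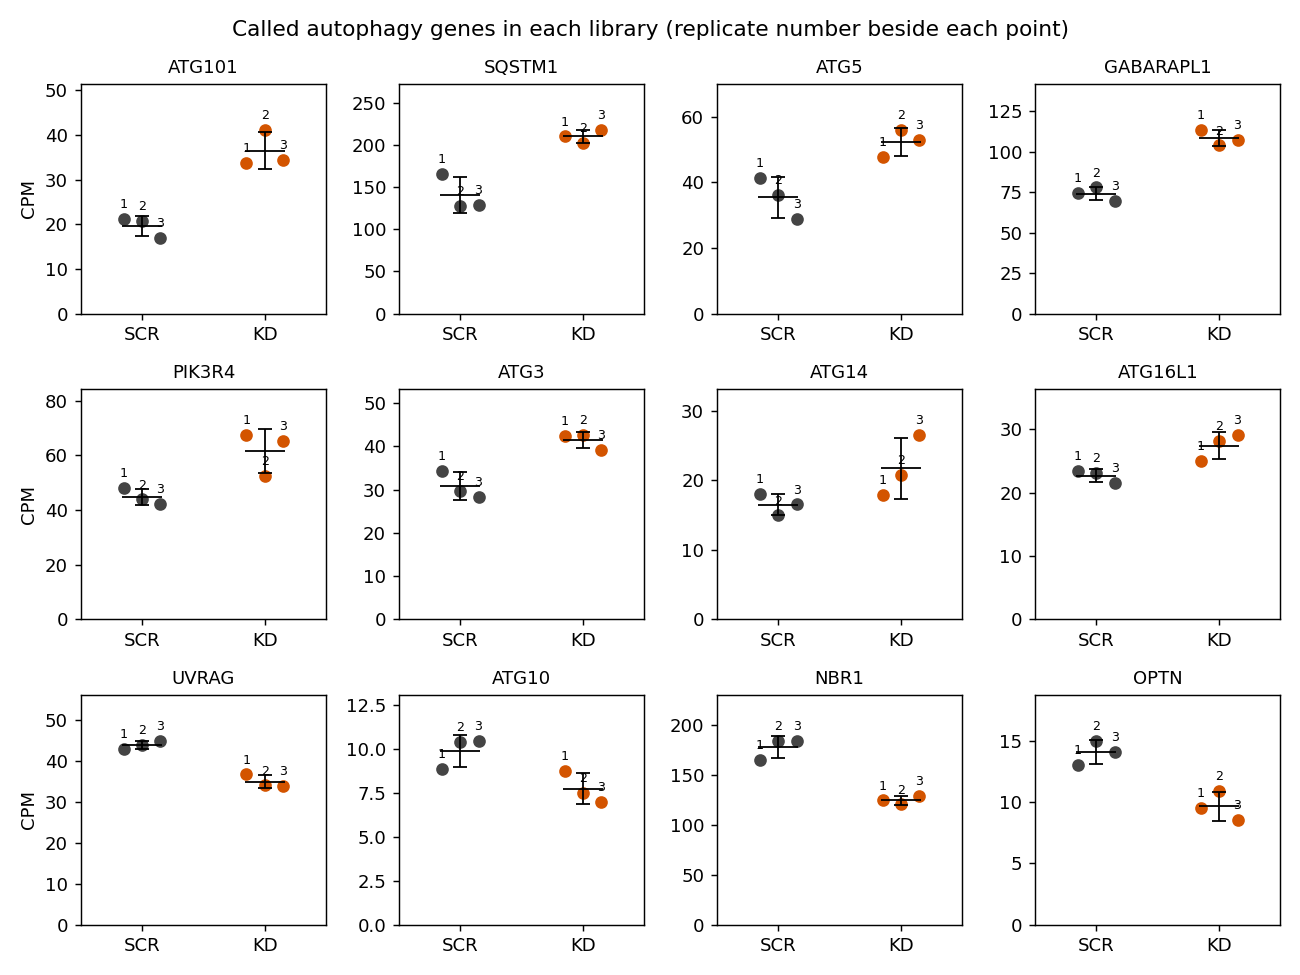
CPM of the 12 called genes in each library, with the replicate number beside each point and the mean and SD of each group (n = 3). Each panel starts at 0; in 11 panels the groups do not overlap, and ATG14 is the exception.

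The ATG4 proteases prime ATG8 proteins before conjugation and later release them from the membrane. None of the 4 genes was called by edgeR (0 at an unadjusted p under 0.05), against 31.7% of all genes tested. The other tools, limma-voom and DESeq2, also gave 0 calls. ATG4B, the main protease of the group, was at 58.0 ± 2.74 and 58.8 ± 4.88 CPM, and the others lay between 6.72 and 16.7 CPM in the control means. Their log2 changes ran from -0.09 for ATG4D to 0.18 for ATG4A.

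Of the ATG8 proteins, 1 of 5 genes rose and 0 fell (20% called, against 31.7% of all genes tested). GABARAPL1 (chromosome 12, 10212458 to 10223130) was at 74.5, 78.0 and 69.7 CPM in control libraries against 113.6, 103.9 and 107.1 CPM after knockdown. Its groups were far apart relative to their spread. It rose 1.46-fold, with group means of 74.1 ± 4.12 and 108.2 ± 4.91 CPM (log2 change 0.54 ± 0.08, adjusted p = 0.000420). Reads of GABARAPL3, a near-identical copy, were at most 2 per library. GABARAP, the founding member of that subfamily, was at 63.3, 65.4 and 62.5 CPM in control libraries against 52.3, 68.8 and 51.3 CPM after knockdown. Knockdown library 2 lay above all controls and the others below, and GABARAP was called only when that library was left out (log2 change -0.30, adjusted p = 0.0190, against -0.14 and 0.331 with all libraries). GABARAPL2 was at 24.6 ± 2.14 and 24.3 ± 2.88 CPM (log2 change 0 ± 0.11, adjusted p = 0.993). MAP1LC3B, the LC3 protein most used as a marker of autophagosomes, was at 22.4, 22.01 and 21.6 CPM in control libraries against 23.0, 22.8 and 21.3 CPM after knockdown, which overlap (log2 change 0.02 ± 0.09, adjusted p = 0.895). MAP1LC3A was at 3.98, 4.84 and 3.80 CPM in control libraries against 1.69, 3.96 and 3.81 CPM after knockdown, with 13 counts in the low library, knockdown library 1 (adjusted p = 0.324).

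Per kilobase of annotated exon, which allows genes to be compared, GABARAP held 45.5% to 47.4% of the summed ATG8 level in the controls and 35.9% to 42.6% in the knockdown. GABARAPL1 held 29.3% to 30.3% in the controls and 35.7% to 44.0% in the knockdown, and was the most abundant of the 5 in knockdown libraries 1 and 3. MAP1LC3B held 6.02% to 6.97% in all 6 libraries. The GABARAP subfamily thus made up most ATG8 transcripts in this line, in both groups. These shares use the union of all annotated exons of a gene, which differs from the transcripts present.

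**Figure D3:**
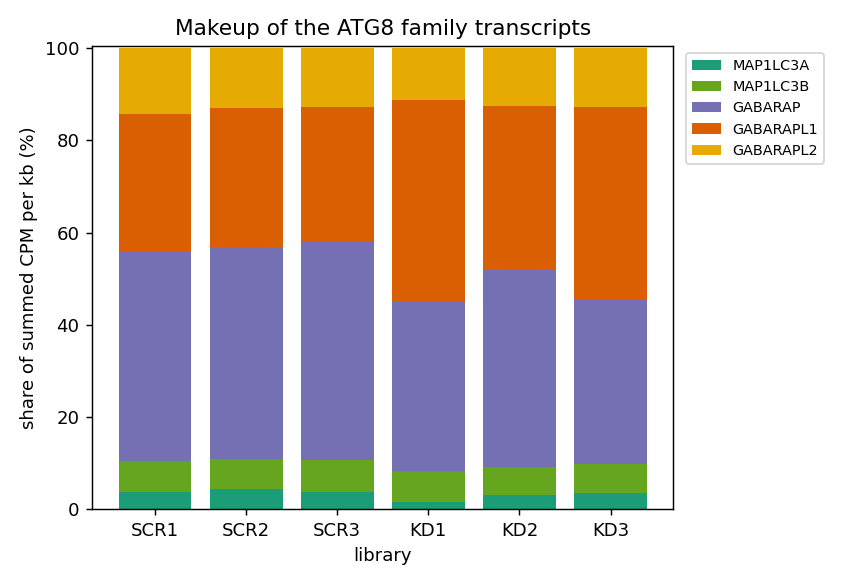
Share of each of the 5 ATG8 genes in their summed CPM per kilobase of exon, in percent, 1 bar per library. The GABARAPL1 share is 29.3% to 30.3% in the controls and 35.7% to 44.0% in the knockdown.

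Of the 4 cargo receptor genes, 1 was higher and 2 were lower (75% called, against 31.7% of all genes tested). It was the largest called share of the role groups, ahead of 66.7% of 6 conjugation enzymes. Groups this small give no firm order. SQSTM1 and NBR1, receptors of the same kind that act together on ubiquitylated cargo, changed in opposite directions. SQSTM1 (chromosome 5, 179806398 to 179838078), which encodes p62, was at 165.3, 127.3 and 128.8 CPM in control libraries against 209.9, 202.3 and 217.9 CPM after knockdown. Control 1 lay nearest to the knockdown libraries, which were close to each other. SQSTM1 rose 1.496-fold, with group means of 140.5 ± 21.5 and 210.0 ± 7.80 CPM (log2 change 0.58 ± 0.10, adjusted p = 0.000945). NBR1 (chromosome 17, 43170481 to 43211689) was at 165.2, 184.6 and 184.7 CPM in control libraries against 124.7, 120.7 and 129.5 CPM after knockdown. The groups were clearly apart, with control 1 again the nearest. NBR1 fell 1.43-fold, with group means of 178.2 ± 11.2 and 125.0 ± 4.44 CPM (log2 change -0.51 ± 0.08, adjusted p = 0.000595).

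The ratio of SQSTM1 to NBR1, per kilobase of exon, was 1.10, 0.758 and 0.765 in controls 1 to 3 but 1.85, 1.84 and 1.85 in the knockdown libraries, a pair chosen after its values were seen. A non-coding gene on the strand opposite NBR1 (ENSG00000267002) also fell, from a range of 12.0 to 13.4 CPM to one of 8.45 to 10.2 CPM (log2 change -0.48, adjusted p = 0.00937). With no statement that counting used strand, its reads may not be separated from those of NBR1. The genes that overlap SQSTM1 on the other strand, MGAT4B and MRNIP, were not called (log2 changes -0.09 and 0.23), nor were SLC35A5 and PRDM1, which overlap ATG3 and ATG5. OPTN (chromosome 10, 13099449 to 13138308), optineurin, a receptor for damaged mitochondria and bacteria, was at 13.1, 15.0 and 14.1 CPM in control libraries against 9.495, 10.9 and 8.55 CPM after knockdown. All knockdown libraries were below all controls, and OPTN fell 1.46-fold (log2 change -0.54 ± 0.13, adjusted p = 0.00577). CCDC3, whose span overlaps OPTN on the other strand, rose (log2 change 0.40, adjusted p = 0.00238). TAX1BP1, a receptor for protein aggregates, was at 108.3, 113.7 and 95.9 CPM in control libraries against 93.1, 96.6 and 89.1 CPM after knockdown, which overlap (log2 change -0.19 ± 0.09, unadjusted p = 0.0471, adjusted p = 0.112). It was called with upper-quartile scaling (adjusted p = 0.0410).

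TFEB and TFE3 are factors that switch on lysosomal and autophagy genes when mTORC1 is inactive. In edgeR's test 0 of 2 were called, against 31.7% of all genes tested, and 0 had an unadjusted p under 0.05. Neither was called by DESeq2 or limma-voom. A group of 2 genes gives no firm share. TFE3 was at 30.8 ± 3.76 and 32.8 ± 2.02 CPM (log2 change 0.085 ± 0.10, adjusted p = 0.568). TFEB was low, at 1.46, 2.49 and 2.85 CPM in control libraries against 1.69, 2.50 and 1.67 CPM after knockdown, with 13 to 51 counts per library (adjusted p = 0.647). Of 4 autophagy genes known as TFEB targets, SQSTM1 rose, UVRAG fell, and MAP1LC3B and WIPI1 were not called. Of 12 known as targets of ATF4 or its partner CHOP, 4 rose (SQSTM1, ATG5, ATG3 and ATG16L1), 2 fell (NBR1 and ATG10) and 6 were not called. Their median log2 change was 0.01. Both sets of targets had 50% called, against 31.7% of all genes tested. The transcript of ATF4 itself was at 952.2, 1021 and 947.3 CPM in control libraries against 836.0, 1009 and 813.8 CPM after knockdown (adjusted p = 0.305). It was called only without knockdown library 2 (log2 change -0.24, adjusted p = 0.0285, against -0.14 with all libraries). DDIT3, which encodes CHOP, was at 15.5 ± 3.27 and 16.7 ± 3.32 CPM (adjusted p = 0.594).

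Levels of different genes were compared per kilobase of exon. In the controls GABARAP was highest at 28.1 ± 0.66 CPM per kilobase, followed by ATG13 at 24.2 ± 1.10, NBR1 at 21.2 ± 1.34, SQSTM1 at 18.4 ± 2.81 and GABARAPL1 at 18.1 ± 1.008. GABARAP, ATG13 and NBR1 did not overlap in the controls, SQSTM1 was above NBR1 in control 1 and below it in controls 2 and 3, and SQSTM1 and GABARAPL1 overlapped. In the knockdown SQSTM1 was highest at 27.4 ± 1.02, with GABARAPL1 at 26.5 ± 1.20 and GABARAP at 25.4 ± 4.33, which overlapped one another, and NBR1 stood at 14.9 ± 0.53. WIPI1, ULK2 and TFEB were lowest in both groups, at 0.222 ± 0.014, 0.369 ± 0.043 and 0.402 ± 0.13 in control libraries against 0.128 ± 0.044, 0.280 ± 0.058 and 0.346 ± 0.084 after knockdown.

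**Figure D4:**
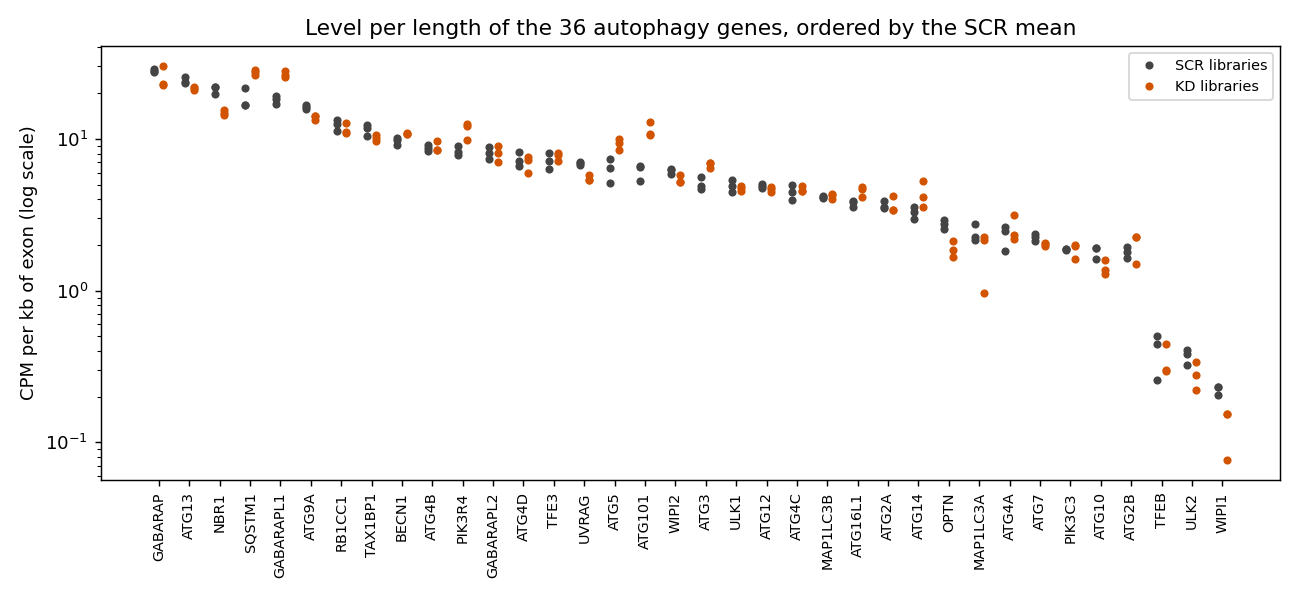
CPM per kilobase of exon (log axis) of the 36 genes in the 6 libraries, ordered by the control mean. GABARAP is at 28.1 and WIPI1 at 0.222 in the control means, and SQSTM1 and GABARAPL1 are the genes near the top whose knockdown points stand above the control points.

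Related genes were read from 6 lists of 108 genes, none of them among the 36, of which 102 passed the filter. Of these 11 rose and 23 fell, with a median log2 change of -0.06. The called share of 33.3% was close to the 31.7% of all genes tested (15.9% higher and 15.9% lower). The 11 rises became 4 without control 2 and 6 without control 3, and 7 under upper-quartile scaling. Over all genes tested, the 2328 rises became 1264, 1420 and 1773 in the same settings. Called shares by list were 36.4% (further core factors), 47.1% (further receptors), 38.5% (fusion machinery), 24.1% (lysosome), 31.6% (mTORC1 and AMPK) and 30.8% (transcriptional control). Among further core factors 0 of 11 rose and 4 fell. TP53INP1, which binds ATG8 proteins, was at 69.6, 80.1 and 74.8 CPM in control libraries against 49.6, 44.3 and 54.5 CPM after knockdown, a fall of 1.51-fold (adjusted p = 0.000574). TP53INP2, its relative, fell 1.75-fold (adjusted p = 0.00142), and ATG16L2, a paralog of ATG16L1, fell 1.62-fold (adjusted p = 0.00485), while ATG16L1 itself rose. ZFYVE1, the PI3P-binding protein DFCP1, fell 1.37-fold (adjusted p = 0.0183), a call lost without control 2, control 3 or knockdown library 3 (adjusted p = 0.0902, 0.0632 and 0.0538).

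Further receptors gave 2 rises and 6 falls of 17 genes. BNIP3L, a mitophagy receptor, was at 85.9, 98.5 and 106.7 CPM in control libraries against 59.8, 61.03 and 61.5 CPM after knockdown (adjusted p = 0.000209). BNIP3, its relative, spread widely in the controls, at 67.9, 86.9 and 136.2 CPM, against 49.3, 56.2 and 49.8 CPM in the knockdown, and fell 1.87-fold (adjusted p = 0.00225). BCL2L13, another receptor on mitochondria, fell 1.30-fold (adjusted p = 0.00389), and SEC62, a receptor for the endoplasmic reticulum, rose 1.35-fold (adjusted p = 0.00547). The machinery that fuses autophagosomes with lysosomes gave 3 rises and 2 falls of 13 genes. VPS18 and VPS33A, subunits of the HOPS tether, rose 1.34-fold and 1.29-fold, YKT6, a SNARE, rose 1.23-fold, and EPG5, a tether, fell 1.31-fold (adjusted p = 0.00426, 0.0131, 0.0167 and 0.0143). VPS33A lost its call without control 2, control 3 or knockdown library 1 (adjusted p = 0.0903, 0.0549 and 0.0524), and YKT6 without control 2, control 3 or knockdown library 3 (0.0863, 0.0738 and 0.0512). EPG5 lost its call without control 3 or knockdown library 2 (0.0601 and 0.0538). The 3 rises became 1 without control 2 or 3, and the 2 falls became 0 without control 3 and 1 without control 2, knockdown library 1 or knockdown library 2. Among receptors the 2 rises became 1 without control 2, control 3, knockdown library 2 or knockdown library 3, and the 6 falls became 3 without control 2.

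Lysosomal genes, many of them driven by TFEB, gave 3 rises and 4 falls of 29 genes. ATP6V0E1, a proton pump subunit, and LAMP1, a membrane glycoprotein, rose 1.44-fold and 1.31-fold (adjusted p = 0.00176 and 0.00504), whereas GAA, the acid alpha-glucosidase, and SCARB2, the LIMP2 protein, fell 1.44-fold and 1.31-fold (adjusted p = 0.00229 and 0.00358). Genes of mTORC1 and AMPK signalling gave 2 rises and 4 falls of 19, with 13 not called and a median log2 change of 0.06. The naming rule picked the 4 that fell, so the 2 that rose are not named. DDIT4, a stress-induced inhibitor of mTORC1, was at 148.3, 324.5 and 308.5 CPM in control libraries against 35.9, 43.6 and 32.0 CPM after knockdown, the largest change in the 6 lists (adjusted p = 1.51e-05). SESN2, a leucine sensor that restrains mTORC1, was at 112.1, 169.3 and 149.2 CPM and at 77.5, 79.3 and 64.5 CPM, a fall of 1.95-fold (adjusted p = 0.000202). DEPTOR and SESN3, further inhibitors, fell 1.44-fold and 1.34-fold (adjusted p = 0.00116 and 0.00447). The lysosomal rises became 5 without control 1, and the lysosomal falls became 2 without control 3 or knockdown library 1 and 7 under upper-quartile scaling. The 2 rises in signalling genes became 0 without control 2 and 1 without control 3 or knockdown library 1.

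Regulators of autophagy transcription gave 1 rise and 3 falls of 13 genes. FOXO3, a factor that can activate autophagy genes, was at 83.3, 100.4 and 103.7 CPM in control libraries against 58.9, 54.2 and 58.3 CPM after knockdown, a fall of 1.68-fold (adjusted p = 0.000146). FOXO1 fell 1.29-fold (adjusted p = 0.0273), with its call lost when control 2, control 3, knockdown library 2 or knockdown library 3 was left out (adjusted p = 0.0521, 0.126, 0.0860 and 0.0990). RRAGD, a Rag GTPase, fell 1.42-fold (adjusted p = 0.00106). FLCN, folliculin, which acts on that GTPase, rose 1.29-fold (adjusted p = 0.0216), a call lost without control 2 or knockdown library 3 (0.106 and 0.0883) and under upper-quartile scaling (0.0504).

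**Figure D5:**
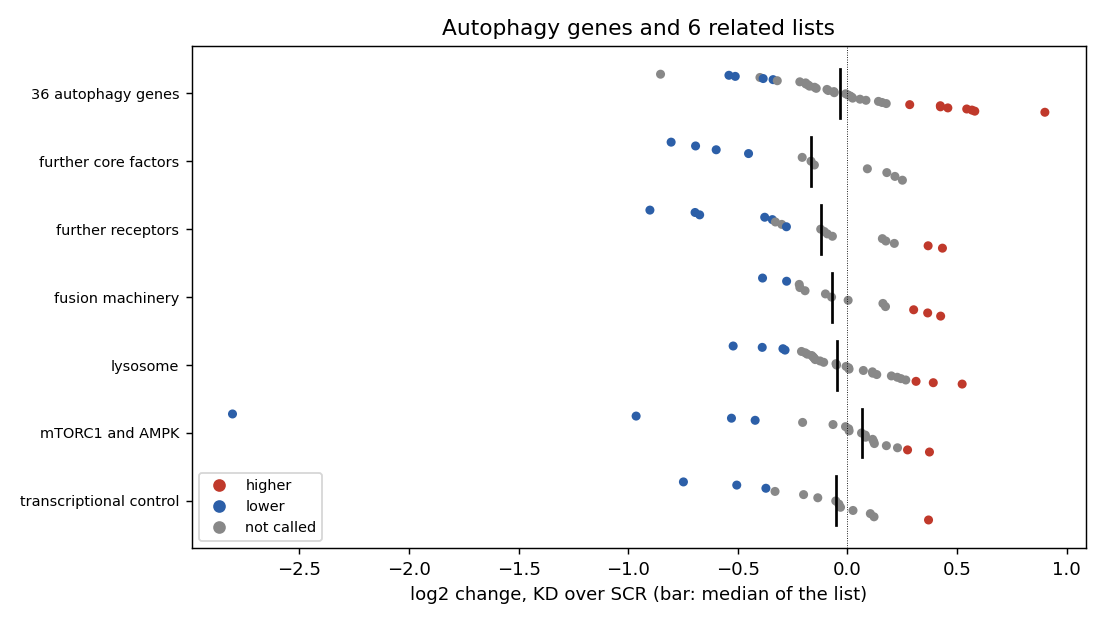
Log2 change, knockdown over control, of every tested gene of the 36 autophagy genes and of the 6 related lists, 1 point per gene, with the median of each list as a bar. Each list has genes on both sides of 0, and its median lies between -0.17 and 0.06; the point at -2.81 is DDIT4.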

How the data were processed

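Polyadenylated RNA of 6 D283 Med libraries, 3 SCR and 3 KD, was sequenced after extraction with a miRNeasy Micro kit and TruSeq Stranded mRNA library preparation, per the labels. Per the submitters' processing notes, Trim Galore 0.6.4, STAR 2.7.9a and RSEM were used with GRCh38.p13. The sources used here name neither the annotation nor the use of strand. The authors deposited whole-number counts for 60708 gene identifiers, and whether these are rounded RSEM estimates is not stated.

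Counts of 44 pseudoautosomal identifiers on Y were merged with those on X. Coordinates and exon lengths are from GENCODE release 29 (GRCh38, 1-based). Replicate counts varied beyond sampling noise (chi-square 2.69 to 15.2 per degree of freedom). Groups were compared with edgeR 4.0.16 in R 4.3.3 (filterByExpr, TMM, quasi-likelihood F test, 2-sided), with Benjamini-Hochberg adjustment over 14673 genes and a threshold of 0.05. Unless another tool is named, adjusted p-values come from it, and the SE was taken as the size of the log2 change over the root of F. An exact permutation test of 3 against 3 libraries cannot go below 0.1 and was not used. The fit was tested on simulated data. The genes, the 6 lists and the naming rule (called members, members not called of stated kinds, up to 4 called genes per list by adjusted p, and DDIT4, SESN2, ATF4, DDIT3 and BNIP3L) were chosen with earlier results of these data known. Alternatives were RLE and upper-quartile scaling, other low-count filters, limma-voom (limma 3.58.1), DESeq2 1.42.0, a threshold of 0.01, the replicate number as a block, and the omission of each library. Ratios, and values of further genes that were not called, were chosen after the results were seen. One marker of other cell types, and the summed level of its list, is not reported here.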

Additional observations from a re-analysis of the deposited data

How the results depend on the processing

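Of 503 values of the 36 genes under the alternatives, 476 kept their side of the threshold and direction of call, 20 lost a call, 7 gained one and 0 called values changed sign, while 10 genes that were not called changed the sign of their estimate at least once. With upper-quartile scaling 7 of the 36 genes were lower in place of 4, and 7 genes of the related lists were higher in place of 11. Over all genes 2803 were lower in place of 2329 and 1773 higher in place of 2328. The median log2 change was -0.092 in place of -0.03 for the 36 genes, and -0.06 for all genes. At an adjusted p of 0.01, 2459 genes were called in place of 4657, and 5 genes of the related lists were higher and 15 lower in place of 23. Leaving out each library gave 2704 (without control 2) to 5114 (without control 1) called genes and 2891 without control 3. It gave 6 to 8 of the 36 genes higher, 3 to 5 lower, and 4 to 14 related genes higher. The replicate block gave 4742 called genes and 7 of the 36 higher and 3 lower. The correlation of deviations between libraries of the same number was 0.031, 0.096 and -0.033, so the numbers were not treated as pairs, and not every library correlated best with its own number. Depth was lowest in knockdown library 1. WIPI1, ULK2, TFEB and MAP1LC3A had the lowest counts of the 36 genes, and an effect of that depth on them was not tested.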
